A study of Triticum aestivum with 23 samples.

Results

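*TaCPD1-A* (TraesCS5A03G0368600, chromosome 5A), *TaCPD1-B* (TraesCS5B03G0369000, chromosome 5B) and *TaCPD1-D* (TraesCS5D03G0351000, chromosome 5D) are the wheat homoeologues of *CPD*. They were taken by identifier and are 3 of the 266760 genes in the table. All 3 were among the 83495 genes that passed the filter on low values (0.5 TPM or more in 3 libraries or more). TPM is the authors' level of a transcript per gene length, scaled to the same sum in every library.

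Brassinosteroids (BRs) are steroid hormones that promote cell elongation in plants. *CPD* encodes a cytochrome P450 of the CYP90A family, which oxidises BR precursors at carbon 3 and is required for BR synthesis in Arabidopsis. BRs bind the receptor kinase BRI1 at the cell surface, and in Arabidopsis the signal ends in BZR transcription factors that repress the genes of BR synthesis, *CPD* and *DWF4* among them. Plants with impaired BRI1 are dwarfed.

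Seedlings were harvested at leaf stage 2, the whole shoot of each, and several were pooled for each library. The severe mutant *tabri1-a.1bd*, with 3 libraries, carries premature stop codons in the A, B and D homoeologues of *TaBRI1*. There were 4 libraries of each of 5 other genotypes: *tabri1-a.2bd* and *tabri1-a.3bd*, which carry the same B and D alleles with an amino acid substitution in TaBRI1-A, the double mutant *tabri1-bd*, the cultivar Cadenza, and *TaBRI1-NS*, a null segregant without the mutant alleles. All lines derive from Cadenza, *tabri1-a.2bd* and *tabri1-a.3bd* by a new round of chemical mutagenesis of *tabri1-bd* and a cross back to it, and the others by repeated backcrossing to Cadenza, so induced mutations elsewhere can differ between lines. Plants of *tabri1-a.1bd* are severe, infertile dwarfs, those of *tabri1-a.2bd* dwarfs, and those of *tabri1-a.3bd* milder mutants. In whole shoots, a change in the share of cells that use a gene and a change in the RNA per cell cannot be told apart.

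The reads recovered from the TPM numbered 22601583 to 38433014 per library. The 3 *CPD* genes had 276 to 1313 reads each in a library, and the counting error was at most 6.02% of the value. The SD between replicates was larger, at 10.4% to 44.5% of the mean. The counting error covers counting only, since reads are not independent molecules, and the p-values below measure the spread between pools of seedlings. The library of *tabri1-a.1bd* replicate 1 was the lowest of its genotype for every *CPD* gene. The tests of the *CPD* genes whose call depends on it, and the counts of the other BR synthesis genes, are given with and without it. Over all genes this library was not alone. Array weights give a library less weight the more it strays from its genotype. They were lowest for *tabri1-a.1bd* replicates 2 and 1 (0.0631 and 0.0787), followed by its replicate 3 (0.438). The *TaBRI1* transcripts themselves were not lost in the mutants. The log2 changes of *TaBRI1-D*, the receptor gene on chromosome 3D, against *TaBRI1-NS* were 0.67 in *tabri1-a.1bd*, 0.48 for *tabri1-a.2bd* and 0.53 for *tabri1-a.3bd* (limma adjusted p = 0.000518, 0.027 and 0.0326), so the level of these transcripts does not check the genotype labels.

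*TaCPD1-D* separated the triple mutants from the other genotypes most cleanly. It was at 10.2, 16.2 and 18.5 TPM in *tabri1-a.1bd*, at 12.9, 11.03, 9.81 and 14.0 TPM in *tabri1-a.2bd* and at 10.2, 9.01, 10.7 and 13.1 TPM in *tabri1-a.3bd*. It was at 7.14, 5.83, 8.34 and 6.48 TPM in *tabri1-bd*, at 6.94, 6.03, 7.35 and 7.72 TPM in Cadenza and at 7.82, 8.54, 5.97 and 6.45 TPM in *TaBRI1-NS*. Each of the 11 triple-mutant libraries lay above each of the 12 others, the lowest at 9.01 TPM and the highest of the others at 8.54 TPM. Such a separation was found for 73 of the 83495 genes tested (0.0874%), and for 1 of the 3 *CPD* genes. The means were 14.9 ± 4.29 TPM in *tabri1-a.1bd* (SD, n = 3), 11.9 ± 1.86 TPM for *tabri1-a.2bd* and 10.8 ± 1.71 TPM for *tabri1-a.3bd*, against 6.95 ± 1.07 TPM in *tabri1-bd*, 7.01 ± 0.73 TPM in Cadenza and 7.2 ± 1.19 TPM in *TaBRI1-NS* (SD, n = 4 each).

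*TaCPD1-A* was at 6.27, 14.7 and 16.9 TPM in *tabri1-a.1bd*, at 11.9, 12.8, 10.5 and 16.7 TPM in *tabri1-a.2bd* and at 12.7, 8.12, 13.3 and 10.4 TPM in *tabri1-a.3bd*. In *tabri1-bd* its libraries were at 8.57, 6.44, 7.53 and 7.21 TPM, in Cadenza at 9.79, 7.28, 7.09 and 8.46 TPM, and in *TaBRI1-NS* at 6.92, 6.05, 6.60 and 8.07 TPM. Of the 11 triple-mutant libraries, 9 lay above all 12 others. The exceptions were *tabri1-a.1bd* replicate 1, at the level of the control libraries, and *tabri1-a.3bd* replicate 2. The mean was highest in *tabri1-a.2bd*, at 13 ± 2.62 TPM (SD, n = 4), followed by *tabri1-a.1bd* at 12.6 ± 5.62 TPM (SD, n = 3), and it was 6.91 ± 0.853 TPM in *TaBRI1-NS* (SD, n = 4). The SD of *tabri1-a.1bd* was 44.5% of its mean, the widest spread of any *CPD* gene in any genotype.

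*TaCPD1-B* was at 10.9, 16.2 and 20.1 TPM in *tabri1-a.1bd*, at 14.4, 15.5, 13.7 and 17.3 TPM in *tabri1-a.2bd* and at 13.1, 12.3, 14.3 and 16.6 TPM in *tabri1-a.3bd*. The libraries of *tabri1-bd* were at 10.2, 7.69, 10.2 and 10.6 TPM, those of Cadenza at 12.5, 11.7, 9.98 and 13.2 TPM, and those of *TaBRI1-NS* at 12.4, 12.1, 8.24 and 8.98 TPM. Here 8 of the 11 triple-mutant libraries lay above all 12 others. The means were 15.7 ± 4.62 TPM in *tabri1-a.1bd* (SD, n = 3), 15.2 ± 1.59 TPM for *tabri1-a.2bd* and 14.1 ± 1.88 TPM for *tabri1-a.3bd*, against 9.69 ± 1.35 TPM in *tabri1-bd*, 11.9 ± 1.39 TPM in Cadenza and 10.4 ± 2.14 TPM in *TaBRI1-NS* (SD, n = 4 each). For each homoeologue the 3 triple mutants held the 3 highest means, and the ranges of their libraries overlapped. The ranges of *tabri1-bd*, Cadenza and *TaBRI1-NS* overlapped as well, for all 3 genes. Between the lowest triple mutant, *tabri1-a.3bd*, and the next genotype in the order there was no overlap for *TaCPD1-D*, and there was for the other 2.

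**Figure D1:**
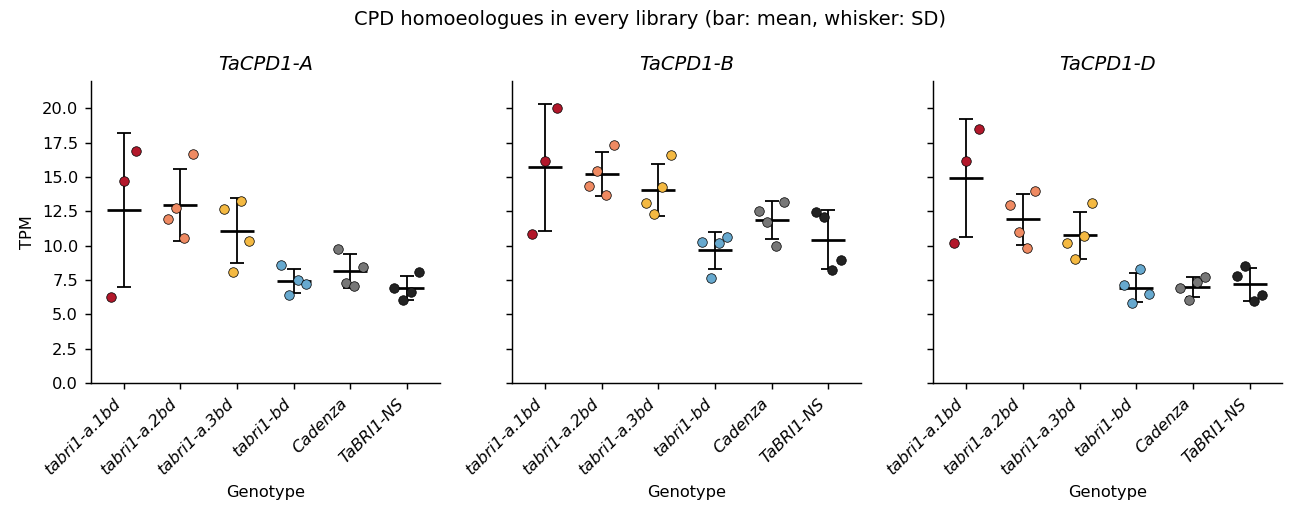
TPM of *TaCPD1-A*, *TaCPD1-B* and *TaCPD1-D* (vertical axis) in each library of the 6 genotypes (horizontal axis), with the mean as a bar and the SD as a whisker (n = 3 in *tabri1-a.1bd* and 4 in the others). For *TaCPD1-D* the 11 triple-mutant libraries lie at 9.01 TPM or more and the 12 others at 8.54 TPM or less, and *tabri1-a.1bd* replicate 1 is the lowest of its genotype in each panel.

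The change of each *CPD* gene was tested on log2(TPM + 0.5) by limma, with all libraries in 1 fit and Benjamini-Hochberg adjustment over the 83495 genes tested. A gene was called at an adjusted p of 0.05 or less. Against *TaBRI1-NS*, which asks what loss of the receptor does in the seedling, all 3 genes rose in *tabri1-a.1bd*, where 24.5% of all genes tested were called higher. *TaCPD1-D* rose by a log2 change of 0.98 (SE 0.18, adjusted p = 0.000188), a fold of 1.97 with a 95% interval of 1.51 to 2.56. *TaCPD1-A* rose by 0.72 (SE 0.24, adjusted p = 0.0201) and *TaCPD1-B* by 0.55 (SE 0.18, adjusted p = 0.0184). A change at least as high as that of *TaCPD1-B* was found in 26.6% of all genes tested, whose median log2 change was 0.10.

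The calls of *TaCPD1-A* and *TaCPD1-B* in *tabri1-a.1bd* depended on single libraries. Without replicate 1 their log2 changes were 1.14 and 0.78 (adjusted p = 5.72e-05 and 0.00106). Without replicate 3 they were 0.46 and 0.35 (adjusted p = 0.145 and 0.134), and without replicate 2 they were 0.56 and 0.50 (adjusted p = 0.107 and 0.061). In a fit of *tabri1-a.1bd* and *TaBRI1-NS* alone, neither was called (adjusted p = 0.135 and 0.137). *TaCPD1-A* also lost its call without *TaBRI1-NS* replicate 2 (adjusted p = 0.0504), and *TaCPD1-B* without *TaBRI1-NS* replicate 3 or 4 (0.064 and 0.054) and with array weights (0.0978). *TaCPD1-D* kept its call in each of these fits, with an adjusted p of 0.018 in the fit of the pair alone.

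In *tabri1-a.2bd*, *TaCPD1-A* and *TaCPD1-D* rose against *TaBRI1-NS*, 2 of 3 genes where 3.99% of all genes were called higher. *TaCPD1-A* rose by 0.85 on the log2 scale (SE 0.22, adjusted p = 0.0234), a fold of 1.8 with a 95% interval of 1.31 to 2.49. *TaCPD1-D* rose by 0.69 (SE 0.17, adjusted p = 0.0151). *TaCPD1-B* was 0.54 higher (SE 0.17), with an adjusted p of 0.0537, close to the threshold. At nearly the same log2 change it was called with a filter of 2 TPM (adjusted p = 0.0431), with high-confidence genes only (0.0476), with array weights (0.0164) and by voom on the recovered reads (0.0497). It was also called without *tabri1-a.1bd* replicate 1 (adjusted p = 0.0143) or 3 (0.0316), or *TaBRI1-NS* replicate 1 (0.0421). Without *tabri1-a.1bd* replicate 1, 8.16% of all genes were called higher in this comparison. The 4 *tabri1-a.2bd* libraries of each of the 3 genes lay above the 4 *TaBRI1-NS* libraries, a separation that 10.4% of all genes tested showed. When *tabri1-a.2bd* replicate 4 was left out, 0 of 3 were called, and likewise without *TaBRI1-NS* replicate 3. The lowest adjusted p, that of *TaCPD1-D*, was then 0.059 and 0.0593. One was called without *tabri1-a.2bd* replicate 2 or *TaBRI1-NS* replicate 2.

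In *tabri1-a.3bd* the log2 changes against *TaBRI1-NS* were 0.63 for *TaCPD1-A*, 0.55 for *TaCPD1-D* and 0.43 for *TaCPD1-B* (SE 0.22, 0.17 and 0.17). By limma 0 of the 3 were called (adjusted p = 0.148, 0.0913 and 0.195), where 1.65% of all genes were called higher. All 3 had an unadjusted p under 0.05, as did 16.2% of all genes, and 0 were called by voom on the recovered reads. The *tabri1-a.3bd* libraries lay above all *TaBRI1-NS* libraries for *TaCPD1-A* and *TaCPD1-D*, as for 8.33% of all genes. These adjusted p depended on *tabri1-a.1bd* replicate 1, which enters the shared variance. Without it *TaCPD1-A* and *TaCPD1-D* were called in *tabri1-a.3bd* (adjusted p = 0.0212 and 0.0257), at the same log2 changes, and so were 4.18% of all genes.

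The double mutant *tabri1-bd*, in which TaBRI1-A is intact, differed little from *TaBRI1-NS* in its *CPD* levels. The log2 changes were 0.10 for *TaCPD1-A*, -0.09 for *TaCPD1-B* and -0.05 for *TaCPD1-D*, with 95% intervals of -0.37 to 0.57, -0.44 to 0.26 and -0.40 to 0.31. By limma 0 of 3 were called or had an unadjusted p under 0.05, 0 were called by voom, and 0.126% of all genes were called in either direction. Between Cadenza and *TaBRI1-NS* the changes were 0.22, 0.19 and -0.03, again with 0 of 3 called by limma or voom and 0 at an unadjusted p under 0.05, where 2.23% of all genes were called.

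*tabri1-bd* is the line in which the a.2 and a.3 alleles were induced, so setting the triple mutants against it asks what the additional mutation in TaBRI1-A changes. All 3 *CPD* genes were called higher in *tabri1-a.1bd* than in *tabri1-bd*, and all 3 in *tabri1-a.2bd*, where 24.6% and 4.51% of all genes were. In *tabri1-a.2bd* the log2 changes were 0.75 for *TaCPD1-A* (SE 0.22, adjusted p = 0.0438), 0.63 for *TaCPD1-B* (SE 0.17, adjusted p = 0.0241) and 0.74 for *TaCPD1-D* (SE 0.17, adjusted p = 0.00965). In *tabri1-a.1bd* they were 0.62, 0.64 and 1.02 (adjusted p = 0.0421, 0.00676 and 0.000113). The call of *TaCPD1-A* was near the threshold in both. It was lost under median-of-ratios scaling of the libraries (adjusted p of *TaCPD1-A* 0.077 in *tabri1-a.1bd*, and 0.0556 for *tabri1-a.2bd*), with no filter on low values (0.061 and 0.0667) and by voom (0.0637 and 0.071). With each of the 23 libraries left out in turn, *TaCPD1-A* lost its call in 5 fits for *tabri1-a.1bd* and in 14 for *tabri1-a.2bd*, libraries of Cadenza, *TaBRI1-NS* and *tabri1-a.3bd* among the 14. Of the 3 genes, 1 was called in *tabri1-a.1bd* without its replicate 3, and 1 in *tabri1-a.2bd* without its replicate 2 or 4 or without *tabri1-bd* replicate 2.

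In *tabri1-a.3bd* the changes against *tabri1-bd* were 0.53, 0.52 and 0.60 for *TaCPD1-A*, *TaCPD1-B* and *TaCPD1-D*. By limma 0 of 3 were called (adjusted p = 0.245, 0.112 and 0.0682), against 1.81% of all genes, and 0 by voom, while all 3 had an unadjusted p under 0.05, as did 15.5% of all genes. Without *tabri1-a.1bd* replicate 1 all 3 were called (adjusted p = 0.0498, 0.0366 and 0.018), as were 3.96% of all genes, and without its replicate 3 *TaCPD1-D* was (adjusted p = 0.0491).

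Against Cadenza the number of *CPD* genes called was lower. *TaCPD1-D* was called in *tabri1-a.1bd* (log2 change 1.00, SE 0.18, adjusted p = 0.000148) and in *tabri1-a.2bd* (0.72, SE 0.17, adjusted p = 0.0127), 1 of 3 genes in each, where 17.3% and 1.72% of all genes were called higher. *TaCPD1-B* was 0.36 and 0.35 higher (adjusted p = 0.131 and 0.278), and *TaCPD1-A* was 0.50 and 0.63 higher (adjusted p = 0.112 and 0.115). In *tabri1-a.2bd* the changes of *TaCPD1-A* and *TaCPD1-D* against Cadenza were close, and *TaCPD1-A* was called with array weights (adjusted p = 0.00409) and in a fit of the pair alone (0.0384). In *tabri1-a.3bd* the changes were 0.41, 0.24 and 0.58 for *TaCPD1-A*, *TaCPD1-B* and *TaCPD1-D*, and 0 of 3 were called by limma or voom, against 0.452% of all genes, with 1 at an unadjusted p under 0.05, as for 10.5% of all genes. Without *tabri1-a.1bd* replicate 1 the calls numbered 3 for *tabri1-a.1bd*, 2 for *tabri1-a.2bd* and 1 for *tabri1-a.3bd*. Of all genes, 17.7%, 4.06% and 1.12% were then called higher. In *tabri1-a.2bd* 0 were called without its replicate 4 or without Cadenza replicate 2. The contrasts with the 3 control genotypes share the triple-mutant libraries, so they do not repeat one another independently.

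**Figure D2:**
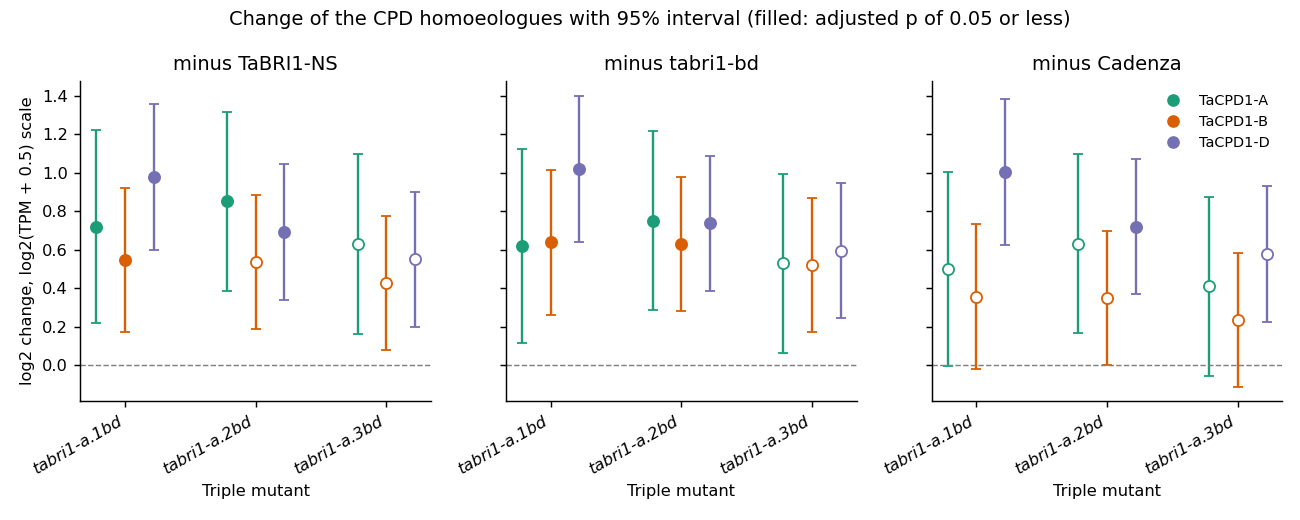
Log2 change of each *CPD* gene (vertical axis, log2(TPM + 0.5) scale) in the 3 triple mutants (horizontal axis) minus *TaBRI1-NS*, *tabri1-bd* or Cadenza, with the 95% interval of the limma fit. Filled points have an adjusted p of 0.05 or less. All points lie above 0, and *TaCPD1-D* in *tabri1-a.1bd* lies highest in each panel, at 0.98, 1.02 and 1.00.

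The triple mutants were also set against each other, to ask whether the *CPD* level follows the severity of the mutant. Between *tabri1-a.1bd* and *tabri1-a.2bd* the log2 changes were -0.13 for *TaCPD1-A* (95% interval -0.63 to 0.37), 0.01 for *TaCPD1-B* (-0.37 to 0.38) and 0.28 for *TaCPD1-D* (-0.10 to 0.66). By limma 0 of 3 were called, 0 had an unadjusted p under 0.05 and 0 were called by voom, where 39.6% of all genes were called in either direction. Without *tabri1-a.1bd* replicate 1 *TaCPD1-D* was called, at 0.53 (adjusted p = 0.0207), and the change of *TaCPD1-A* was 0.29 (adjusted p = 0.258). In that fit 33.9% of all genes were called in either direction.

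Between *tabri1-a.2bd* and *tabri1-a.3bd* the changes were 0.22, 0.11 and 0.14 for *TaCPD1-A*, *TaCPD1-B* and *TaCPD1-D*, with the upper ends of the 95% intervals at 0.69, 0.46 and 0.49. By limma or voom 0 of 3 were called, against 2.62% of all genes, and 0 had an unadjusted p under 0.05. Between *tabri1-a.1bd* and *tabri1-a.3bd* the changes were 0.09, 0.12 and 0.43, with 0 of 3 called by limma, where 40.0% of all genes were, and 1 at an unadjusted p under 0.05. By voom 1 was called (*TaCPD1-D*, adjusted p = 0.0305). When *tabri1-a.1bd* replicate 1 was left out, *TaCPD1-A* and *TaCPD1-D* were called in this pair, at 0.51 and 0.67 (adjusted p = 0.039 and 0.00387). So were 36.4% of all genes, in either direction. Without *tabri1-a.3bd* replicate 4, *TaCPD1-D* was (adjusted p = 0.0375).

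Bread wheat carries 3 related genomes, so the balance of the homoeologues within a library can be read apart from the scaling of that library. In TPM, *TaCPD1-B* was the highest of the 3 in 23 of 23 libraries, with 40.2% of their summed TPM on average (34.4% to 46.8%), and *TaCPD1-A* and *TaCPD1-D* had 30.2% and 29.6%. In reads the order was different. *TaCPD1-B* had the most reads in 0 of 23 libraries and 27.3% of the reads on average, while *TaCPD1-A* had the most in 12 and *TaCPD1-D* in 11. The difference comes from the gene lengths in the TPM, which the values imply to be 1.73 times as long for *TaCPD1-A* and 1.87 times as long for *TaCPD1-D* as for *TaCPD1-B*. The source of these lengths is not given in the sources used here, and neither is the treatment of reads that match several homoeologues. The order of the homoeologues by level therefore depends on the lengths, while the comparison of their ratios between genotypes does not beyond the effect of the pseudocount.

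**Figure D3:**
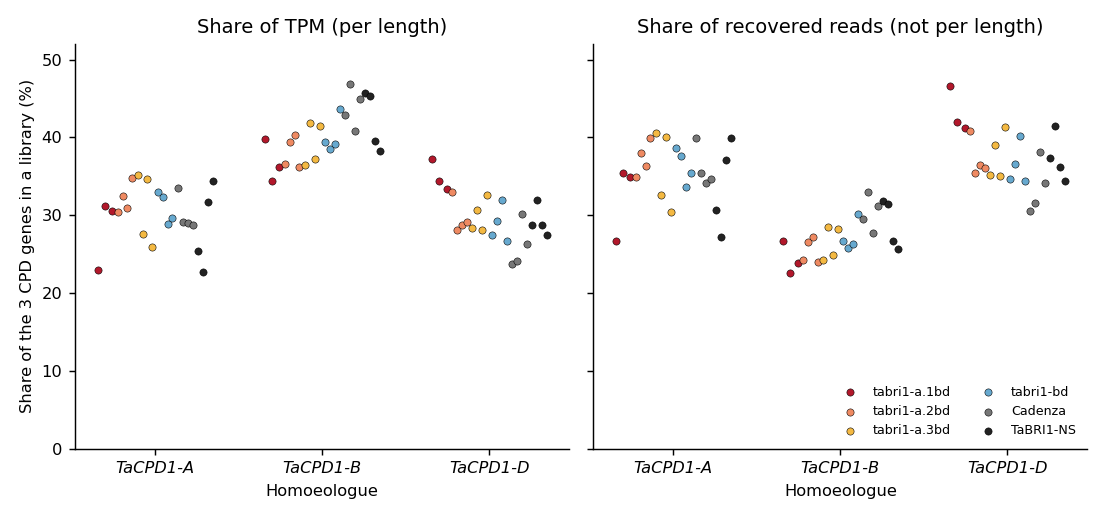
Share of each *CPD* homoeologue (horizontal axis) in the sum of the 3 in a library (vertical axis, %), in TPM at left and in recovered reads at right, with 1 point per library coloured by genotype. *TaCPD1-B* averages 40.2% of the TPM and 27.3% of the reads over 23 libraries.

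The ratio of *TaCPD1-B* to *TaCPD1-D* differed among the 6 genotypes (permutation test of the F statistic with 100000 resamples, adjusted p = 0.00123 over 3 ratios). Its log2 value averaged 0.07 ± 0.06 in *tabri1-a.1bd* (SD, n = 3), 0.34 ± 0.15 for *tabri1-a.2bd*, 0.38 ± 0.04 for *tabri1-a.3bd*, 0.45 ± 0.17 in *tabri1-bd*, 0.72 ± 0.21 in Cadenza and 0.50 ± 0.09 in *TaBRI1-NS* (SD, n = 4 each). The 3 *tabri1-a.1bd* libraries, at 0.00 to 0.12, lay below the 20 others, of which the lowest was at 0.14. Replicate 1 did not stand apart in this ratio. The adjusted p lay between 0.00012 and 0.00771 in the fits that each left out 1 library.

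The ratio of *TaCPD1-A* to *TaCPD1-B* (adjusted p = 0.544) and that of *TaCPD1-A* to *TaCPD1-D* (adjusted p = 0.325) did not pass the same test. Of 15 comparisons of a ratio in a genotype with *TaBRI1-NS*, 0 passed after adjustment (exact two-sided permutation test). The smallest p that the design allows is 0.0286 for 4 libraries against 4 and 0.0571 for 3 against 4, and it was reached for *TaCPD1-B* over *TaCPD1-D* in *tabri1-a.3bd* (log2 difference -0.12) and in *tabri1-a.1bd* (-0.43, exact permutation p = 0.0571). For both the adjusted p was 0.429.

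**Figure D4:**
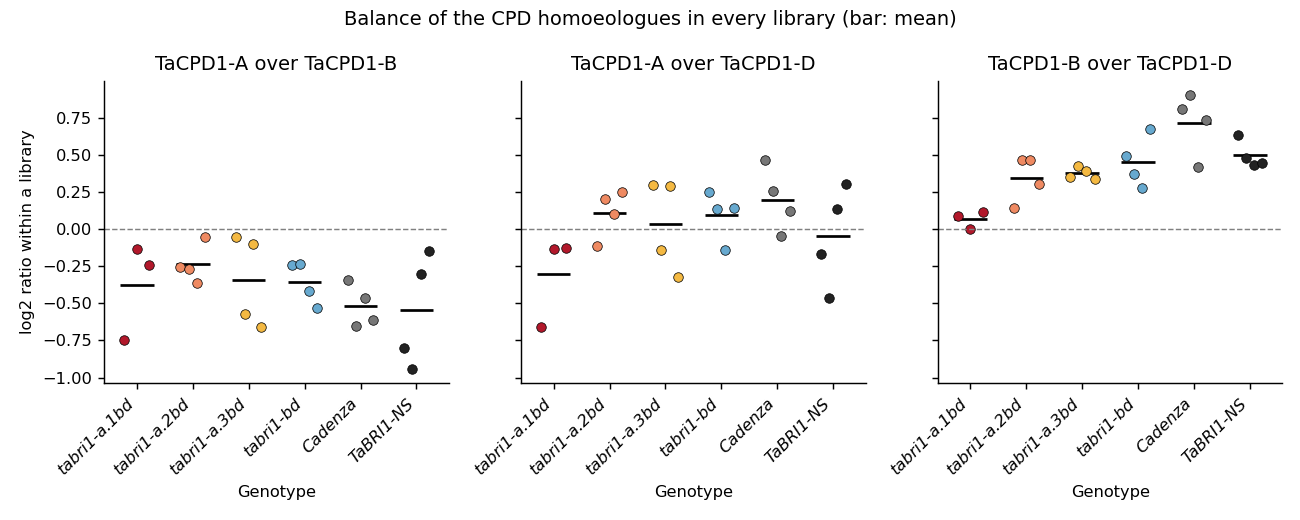
Log2 ratio of each pair of *CPD* homoeologues within a library (vertical axis) by genotype (horizontal axis), with 1 point per library and the mean as a bar. For *TaCPD1-B* over *TaCPD1-D* the 3 *tabri1-a.1bd* libraries lie between 0.00 and 0.12, below the 20 others.

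Within genotypes the homoeologues varied together between libraries. After the genotype means were taken out, the deviations of *TaCPD1-B* and *TaCPD1-D* had a Pearson's r of 0.834 over 23 libraries (permutation within genotypes, adjusted p = 0.00114) and a Spearman's rho of 0.792 (adjusted p = 0.00186). Without the 2 libraries farthest from the median, *tabri1-a.1bd* replicates 1 and 3, r was 0.74. For *TaCPD1-A* with *TaCPD1-B*, r was 0.637 (permutation adjusted p = 0.031) and rho 0.522 (adjusted p = 0.0422), and r was 0.364 without those 2 libraries. For *TaCPD1-A* with *TaCPD1-D*, r was 0.637 (permutation adjusted p = 0.0329) and rho 0.527 (adjusted p = 0.0422), and r was 0.368 without the same 2 libraries. After median-of-ratios scaling of the libraries the r of *TaCPD1-A* with *TaCPD1-B* was 0.556 (permutation adjusted p = 0.0463) and its rho had an adjusted p of 0.0568, and with *TaCPD1-D* the r was 0.555 (permutation adjusted p = 0.0463) and the rho 0.44 (adjusted p = 0.0909). For *TaCPD1-B* with *TaCPD1-D* the scaled r was 0.782 (permutation adjusted p = 0.00132) and the scaled rho 0.779 (adjusted p = 0.00189). The relations of *TaCPD1-A* rest on these libraries, and without *tabri1-a.1bd* replicate 1 alone r was 0.376 and 0.348. Neither passed the test in 7 of the 23 fits that left out 1 library, namely without any 1 of the 3 *tabri1-a.1bd* libraries, *tabri1-a.2bd* replicate 3 or 4, *tabri1-a.3bd* replicate 2 or *tabri1-bd* replicate 2.

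*CPD* was then set beside the other enzymes of BR synthesis. Of 24 other listed genes, 20 were tested, and 11 rose and 4 fell in *tabri1-a.1bd*, 7 rose and 0 fell in *tabri1-a.2bd*, and 1 rose and 0 fell in *tabri1-a.3bd*, all against *TaBRI1-NS*. Their median log2 changes were 1.49, 0.54 and 0.35. Of all genes, 24.5% were called higher and 19.3% lower in *tabri1-a.1bd*. With replicate 1 of this genotype left out, 15 of the 20 rose and 2 fell in *tabri1-a.1bd*. The genes that rose then numbered 11 for *tabri1-a.2bd* and 4 for *tabri1-a.3bd*, with 0 that fell for either. Of all genes, 24.7%, 8.16% and 4.18% were called higher in that fit, in the same order. With every library kept, these shares were 24.5%, 3.99% and 1.65%. The share called lower without replicate 1 was 16.6% for *tabri1-a.1bd*. Without replicate 2 or 3 of *tabri1-a.1bd*, 10 of the 20 rose and 4 fell in that genotype. The medians of the 3 *CPD* genes were 0.72, 0.69 and 0.55, and those of all genes tested 0.10, 0.08 and 0.08. These lists follow the study, which measured the same libraries, so the counts are not independent evidence of a direction.

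*DWF4* encodes the 22-hydroxylase (CYP90B) that acts with *CPD* early in BR synthesis. Its 3 tested genes rose in *tabri1-a.1bd*, with a median log2 change of 1.98, and *TaDWARF4-4D* alone rose in each of the other triple mutants, where the medians were 0.67 for *tabri1-a.2bd* and 0.55 for *tabri1-a.3bd*. *TaDWARF4-4B* averaged 39.5 TPM in *tabri1-a.1bd*, 4.05 TPM for *tabri1-a.2bd* and 3.61 TPM for *tabri1-a.3bd*, against 2.31 TPM in *TaBRI1-NS*. The other *DWF4* genes that rose in *tabri1-a.1bd* were *TaDWARF4-4D* (log2 change 1.98) and *TaDWARF4-4A* (1.23). Between *tabri1-a.1bd* and *tabri1-a.2bd*, 3 of 3 *DWF4* genes were called higher, with changes of 0.81 to 3.12, and 0 of 3 *CPD* genes. Of all genes, 19.4% were called higher in that pair. Without *tabri1-a.1bd* replicate 1, *TaCPD1-D* was called higher there too (log2 change 0.53, limma adjusted p = 0.0207), as were 17.8% of all genes. The 3 *DWF4* genes were called higher in *tabri1-a.1bd* in each fit that left out 1 library, against *TaBRI1-NS* as well as against *tabri1-a.2bd*. In the same fits 1 to 2 were called in *tabri1-a.2bd* and 0 to 1 in *tabri1-a.3bd*, against *TaBRI1-NS*.

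*BR6ox1* encodes the C-6 oxidase (CYP85A) of the last steps. Of 8 tested genes, 8 rose in *tabri1-a.1bd*, by 1.75 to 3.39 on the log2 scale, 6 in *tabri1-a.2bd* (median of the 8 genes 1.92) and 0 in *tabri1-a.3bd* (median 0.68). Of all genes, 24.5%, 3.99% and 1.65% were called higher in the same order. *TaBR6ox1-B2* averaged 26.6 ± 21.7 TPM in *tabri1-a.1bd* (SD, n = 3), 11.5 TPM for *tabri1-a.2bd* and 3.6 TPM for *tabri1-a.3bd*, against 1.29 TPM in *TaBRI1-NS*. Of the other genes, *TaBR6ox1-A1*, *TaBR6ox1-A2*, *TaBR6ox1-A3*, *TaBR6ox1-D1* and *TaBR6ox1-D3* rose in both dwarf mutants, and *TaBR6ox1-B1* and *TaBR6ox1-D2* in *tabri1-a.1bd*. All *TaBRI1-NS* libraries list *TaBR6ox1-B1* at 0. How reads that match several of these related genes were counted is not given in the sources used here, so the split among them is uncertain. The level of *BR6ox1* depended on *tabri1-a.1bd* replicate 1, in which not all of these genes were raised. *TaBR6ox1-D1* and *TaBR6ox1-D2* lay below all *TaBRI1-NS* libraries there, and *TaBR6ox1-A2*, *TaBR6ox1-B2* and *TaBR6ox1-D3* within their range. *TaBR6ox1-A1*, *TaBR6ox1-A3* and *TaBR6ox1-B1* lay above that range. Without replicate 1 the 8 genes rose by 3.07 to 4.95 in *tabri1-a.1bd* (median 3.98) and 8 of 8 were called for *tabri1-a.2bd*. In that fit 24.7% and 8.16% of all genes were called higher. When replicate 2 or 3 of *tabri1-a.1bd* was left out, 7 of 8 rose in that genotype (medians 2.18 and 2.13). Over the fits that each left out 1 library, 3 to 8 were called in *tabri1-a.2bd* and 0 to 3 in *tabri1-a.3bd*.

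Not every enzyme gene of the pathway was called higher. The 5-alpha-reductase gene *TaDET2-D* averaged 1.79 TPM in *tabri1-a.1bd*, against 6.06 TPM in *TaBRI1-NS*. *TaD2-A*, of the CYP90D family, averaged 11.7 TPM in *tabri1-a.1bd*, against 26.7 TPM in *TaBRI1-NS*. In *tabri1-a.1bd* 2 of 3 *DET2* genes and 2 of 3 *D2* genes fell, where 19.3% of all genes were called lower. In *tabri1-a.2bd* and *tabri1-a.3bd* 0 of either family were called. Of the 3 *D11* genes (CYP724B), 0 were called in any triple mutant. These counts changed when *tabri1-a.1bd* lost its replicate 1. Then 3 of 3 *D11* genes rose in this genotype (median log2 change 1.01), 1 *DET2* gene fell (*TaDET2-D*, -1.04), and of the *D2* genes *TaD2-A* fell (-0.81) and *TaD2-D* rose (0.77). For *tabri1-a.2bd* 1 of 3 *D2* genes was then called higher. Of all genes, 24.7% were called higher and 16.6% lower in *tabri1-a.1bd* in that fit, and 8.16% higher in *tabri1-a.2bd*.

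**Figure D5:**
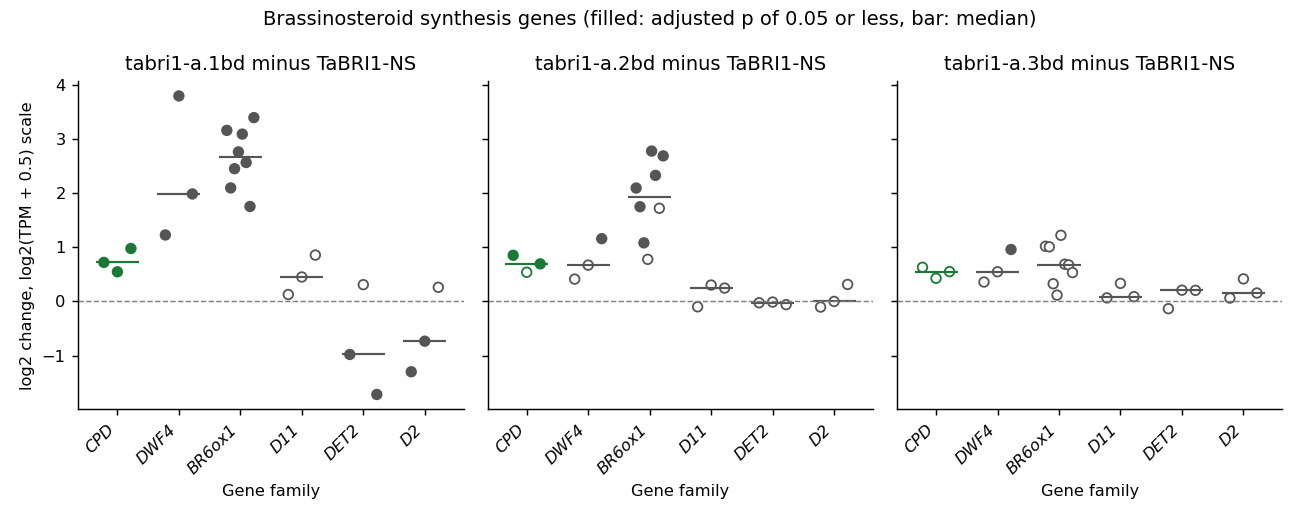
Log2 change (vertical axis, log2(TPM + 0.5) scale) of each tested gene of 6 families of BR synthesis (horizontal axis) in the 3 triple mutants minus *TaBRI1-NS*, with the median of a family as a bar. Filled points have an adjusted p of 0.05 or less. The medians of *CPD* are 0.72, 0.69 and 0.55, while those of *BR6ox1* are 2.66, 1.92 and 0.68.

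The library that was low in *CPD* was not low in every pathway gene. In *tabri1-a.1bd* replicates 1, 2 and 3, *TaBR6ox1-B2* was at 1.56, 37.7 and 40.5 TPM and *TaBR6ox1-D1* at 0.641, 23.6 and 23.6 TPM. *TaBRI1-D* was at 8.16, 13.9 and 12.2 TPM. Replicate 1 was thus the lowest of its genotype for these genes, as for *CPD*. *TaDWARF4-4B* was at 55.6, 35.9 and 26.9 TPM in the same libraries, highest in replicate 1, and *TaDWARF4-4D* was at 5.66, 6.09 and 6.13 TPM. In replicate 1 *TaD2-A* was at 5.15 TPM and *TaDET2-D* at 0.244 TPM, the lowest of the 3 libraries in both. What sets this library apart was not tested.

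Among 61242 other genes with a mean of at least 1 TPM, those most like each *CPD* gene over the 23 libraries were ranked by Pearson's r of log2(TPM + 0.5), a description that the shared genotypes alone can raise. *TaCPD1-D* ranked 4 of these for *TaCPD1-B* and *TaCPD1-B* ranked 35 for *TaCPD1-D*, both at an r of 0.878. *TaCPD1-A* ranked 42 for *TaCPD1-B* (r = 0.826) and 257 for *TaCPD1-D* (r = 0.813). The 3 genes most like *TaCPD1-A* were TraesCS3B03G1434900, TraesCS4D03G0701000 and TraesCS7B03G0593600 (r = 0.901, 0.895 and 0.883). The 3 most like *TaCPD1-B* were TraesCS5B03G0946200LC, TraesCS1D03G0232600 and TraesCS1A03G0813100 (r = 0.897, 0.894 and 0.879). The 3 most like *TaCPD1-D* were TraesCS5A03G1209700LC, TraesCS1D03G0232600 and TraesCS3D03G0667100 (r = 0.915, 0.914 and 0.907). TraesCS1D03G0232600 was thus on the lists of both *TaCPD1-B* and *TaCPD1-D*. It averaged 4.43 TPM in *tabri1-a.1bd*, 3.82 TPM for *tabri1-a.2bd* and 2.94 TPM for *tabri1-a.3bd*, against 1.64 TPM in *TaBRI1-NS*.

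Of the listed pathway genes, *TaBR6ox1-B2* ranked 4 and *TaBR6ox1-A2* ranked 7 for *TaCPD1-A* (r = 0.881 and 0.879). The receptor gene *TaBRI1-D* ranked 5 for *TaCPD1-D* (r = 0.903) and 10 for *TaCPD1-B* (r = 0.851). *TaDWARF4-4D* was the one *DWF4* gene within the first 200 ranks of any *CPD* gene, at 111 for *TaCPD1-D* (r = 0.843).

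The genes next to the *CPD* genes were compared with them, as a check on the chromosome regions. In *tabri1-a.2bd* against *TaBRI1-NS*, 3.99% of all genes were called higher and 3.47% lower. Of the 20 tested neighbours of each *CPD* gene in identifier order, 0 were called higher there. Around *TaCPD1-A*, *TaCPD1-B* and *TaCPD1-D*, 0, 1 and 2 were called lower. The median log2 changes of the neighbours were 0.19, 0.20 and 0.03, against 0.85, 0.54 and 0.69 for the *CPD* genes themselves. In *tabri1-a.3bd* 0 of the 20 were called in either direction around each gene (all genes 1.65% higher, 0.649% lower). In *tabri1-a.1bd* 5, 4 and 2 were called higher and 2, 3 and 3 lower (all genes 24.5% and 19.3%). With 20 neighbours per gene, these counts cannot show a small departure from the shares of all genes. No neighbour was called higher in 2 of the 3 triple mutants.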

How the data were processed

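RNA from 23 libraries of wheat seedlings was sequenced as paired reads. Per the labels, the authors used Trimmomatic 0.39 for trimming, STAR 2.7.8a for mapping (to the IWGSC RefSeq v2.1 assembly) and HTSeq 0.11.3 for counting, and they deposited TPM for each library. The counting options and gene lengths are not given in the sources used here. The authors' own tests used DESeq2.

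Here log2(TPM + 0.5) of 83495 genes (at least 0.5 TPM in at least 3 libraries) was fitted with limma 3.58.1 (lmFit, eBayes with trend and robust) in R 4.3.3, with 1 term per genotype and 14 contrasts. Log2 changes understate those of low genes. Whole reads were recovered for 99.79% of these genes from the steps in the TPM (tolerance 0.001 reads), and limma voom on these reads was added after seeing the data. The scripts were tested on simulated data. Replicate numbers did not pair the libraries. The homoeologue ratios and deviations were tested by permutation in Python 3.11.15 with numpy 2.4.6 and scipy 1.17.1.

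The members and the gene lists were chosen with earlier results of these data known. The genes named are the *CPD* genes, *TaBRI1* genes, genes of BR synthesis called and changed over 2-fold in *tabri1-a.1bd* or *tabri1-a.2bd*, and for each *CPD* gene the 3 most alike. *TaBRI1-D* was chosen among the *TaBRI1* genes, and TraesCS1D03G0232600, *TaBR6ox1-B2* and *TaBR6ox1-D1* for fuller values, after their values were seen. The alternatives were other pseudocounts, filters and scalings, high-confidence genes only, array weights, separate fits, a 2-fold threshold, a replicate block and each library left out. Of the identifiers, 0 were found in the available table of gene names, so sequences and coordinates were not used here.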

Additional observations from a re-analysis of the deposited data

Results flagged for a closer look

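*TaCPD1-B* in *tabri1-bd* had 1 library far from the others. Replicate 2 was at 7.69 TPM and the others at 10.2, 10.2 and 10.6 TPM, so its gap to the nearest library was 0.858 of the whole range. It was the only one of 30 groups of 4 libraries (3 genes and 3 ratios in 5 genotypes) to stand out in this way, where chance alone gives about 1 in 20. Without this library the log2 change of *TaCPD1-B* between *tabri1-bd* and *TaBRI1-NS* was 0.01 in place of -0.09, and neither was called.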

How the results depend on the processing

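No *CPD* gene changed direction against *TaBRI1-NS*, *tabri1-bd* or Cadenza in a triple mutant under any alternative run, while the number called did change. With a change of over 2-fold asked for as well, 0 were called for *tabri1-a.1bd* and 0 for *tabri1-a.2bd* against *TaBRI1-NS*, 1 and 0 against *tabri1-bd*, and 0 in *tabri1-a.2bd* against Cadenza. In separate fits of the pair compared, 1 was called in *tabri1-a.1bd* against *TaBRI1-NS*, 1 against *tabri1-bd*, and 2 in *tabri1-a.2bd* against Cadenza. With array weights, 2 were called in *tabri1-a.3bd* against *TaBRI1-NS*, 3 against *tabri1-bd* and 1 against Cadenza, 2 in *tabri1-a.2bd* against Cadenza and 1 in *tabri1-a.1bd* against *tabri1-bd*. Against *TaBRI1-NS* they called 2 for *tabri1-a.1bd* and 3 for *tabri1-a.2bd*. With voom, 1 was called between *tabri1-a.1bd* and *tabri1-a.3bd*, 2 in each of *tabri1-a.1bd* and *tabri1-a.2bd* against *tabri1-bd*, and 3 in *tabri1-a.2bd* against *TaBRI1-NS*. Shares of all genes called are given here only for the main fit and the fit without *tabri1-a.1bd* replicate 1. The counts under the other alternatives therefore cannot show whether *CPD* calls changed more than those of other genes. The cause was not tested.

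With each library left out in turn, the number called in *tabri1-a.1bd* was 1 to 3 against each of *TaBRI1-NS*, *tabri1-bd* and Cadenza. In *tabri1-a.2bd* it was 0 to 3, 1 to 3 and 0 to 2, and in *tabri1-a.3bd* 0 to 2, 0 to 3 and 0 to 1. Between *tabri1-a.1bd* and *tabri1-a.2bd* it was 0 to 1, and between *tabri1-a.1bd* and *tabri1-a.3bd* 0 to 2. Of the pairs of homoeologues, 1 to 3 passed the test of covariation. Uncalled changes that turned round had a range of -0.19 to 0.010 (*TaCPD1-B*) and -0.13 to 0.037 (*TaCPD1-D*) for *tabri1-bd* minus *TaBRI1-NS*, and of -0.11 to 0.054 (*TaCPD1-D*) for Cadenza minus *TaBRI1-NS*. For *tabri1-a.1bd* minus *tabri1-a.2bd* they lay between -0.39 and 0.29 (*TaCPD1-A*) and between -0.18 and 0.24 (*TaCPD1-B*). For *tabri1-a.1bd* minus *tabri1-a.3bd* they lay between -0.17 and 0.51 (*TaCPD1-A*) and between -0.074 and 0.35 (*TaCPD1-B*). In *tabri1-a.1bd* minus *tabri1-a.2bd*, *TaCPD1-B* was also at -0.028 under median-of-ratios scaling and *TaCPD1-A* at 0.19 with array weights.

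Median-of-ratios scaling took away the shift of 0.10 in the median log2 change of all genes between *tabri1-a.1bd* and *TaBRI1-NS*, and *TaCPD1-A*, *TaCPD1-B* and *TaCPD1-D* were then at 0.59, 0.42 and 0.85, all still called. With the replicate number as a block, 2 *CPD* genes were called in *tabri1-a.2bd* against *tabri1-bd* (*TaCPD1-A*, adjusted p = 0.0603), and no other count moved. Libraries of the same number had correlations of deviations of -0.131 to 0.11 (55 pairs), so the numbers do not pair them.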

Other observations

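The lists outside BR synthesis are given by their counts. Of 15 genes of sterol synthesis, which makes the precursors of BRs, 0 were called against *TaBRI1-NS* in *tabri1-a.2bd* and 0 for *tabri1-a.3bd*, while 1 rose and 2 fell in *tabri1-a.1bd*. When replicate 1 of that genotype was left out, the sterol counts were 7 that rose and 2 that fell in *tabri1-a.1bd*, and 4 that rose and 1 that fell in *tabri1-a.2bd*. Of all genes, 24.7% were then called higher and 16.6% lower in *tabri1-a.1bd*, and 8.16% and 5.87% in *tabri1-a.2bd*. Of 30 tested genes of BR signalling, 9 rose and 6 fell in *tabri1-a.1bd* (where 24.5% of all genes were called higher and 19.3% lower). In *tabri1-a.2bd* 2 rose and in *tabri1-a.3bd* 3 rose, those 2 and 3 being *TaBRI1* genes, where 3.99% and 1.65% of all genes were called higher. The 3 genes of *BKI1*, an inhibitor of the BRI1 kinase, fell in *tabri1-a.1bd* (between -1.30 and -2.11 on the log2 scale), and 0 of 3 were called in the other triple mutants. Over the fits that each left out 1 library, 4 to 9 signalling genes rose and 5 to 6 fell in *tabri1-a.1bd*, 0 to 5 rose in *tabri1-a.2bd*, 0 to 4 rose in *tabri1-a.3bd*, and 2 to 3 *BKI1* genes fell in *tabri1-a.1bd*. The median log2 changes of the sterol genes were 0.10 in *tabri1-a.1bd*, 0.05 for *tabri1-a.2bd* and 0.08 for *tabri1-a.3bd*. Those of the signalling genes were 0.16, 0.18 and 0.23 in the same order.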
